A study of Sus scrofa with 8 samples.

Results

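Solute carriers are the membrane proteins that move amino acids, sugars, ions, vitamins, nucleotides and metabolites across the cell surface and across the membranes of organelles. Probesets were taken as members when the annotation of the array, or the symbol in the study's own list of probesets that differed between the breeds, began with SLC and a digit. These were 199 of the 23999 probesets tested. The array annotation named 179 of them, for 121 genes, and only these were tested. The study's list alone named another 18 probesets, for 16 genes, and because that list was drawn up from these arrays their values are given as a description. The remaining 2 carried several symbols and were not assigned to a gene. By family number the 121 genes were 19 amino acid carriers, 17 sugar carriers, 25 ion carriers, 21 members of the mitochondrial family SLC25 and 36 other carriers, with 3 genes that are named for a carrier without being one. Classes follow family number alone, so some genes carry a different substrate from that of their class.

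Endometrium was taken on day 12 of gestation from 8 pregnant gilts (young females in a first pregnancy), 4 Meishan and 4 Yorkshire, each mated to boars of its own breed. Meishan is a Chinese breed with large litters, and the comparison asks how transport genes of its endometrium differ from those of a European breed. Uteri were used by the study only where the conceptuses had become filamentous. Each gilt had 1 Affymetrix Porcine Genome array, and precision is limited by the number of arrays.

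In the pig the conceptus attaches to the surface of the uterus without invading it, and until the placenta forms it lives on what the endometrium releases into the lumen. Carriers of the luminal and glandular epithelium load that fluid with glucose, amino acids, minerals and vitamins. Families SLC2 and SLC5 carry glucose by facilitated and by sodium-driven transport, families SLC1, SLC7 and SLC38 carry amino acids, families SLC11, SLC30, SLC31 and SLC39 carry metals, and family SLC25 exchanges metabolites between mitochondria and cytosol.

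Values are signals centred on the median of each array and are averaged as geometric means. Differences are log2 differences, Meishan minus Yorkshire, with their standard error from limma, and a probeset was called where the limma p adjusted over all probesets tested was under 0.1. A gene with several probesets is given at the brightest, unless stated. All 8 genes listed as epithelial markers had means of at least 64 in both breeds, as had 3 of 5 conceptus markers measured. These were IL1B, with means of 295 and 331 and a signal of 1447 in Yorkshire gilt 1, TEAD4 (226 and 265) and POU5F1 (87.3 and 80.3), while the steroid enzymes CYP17A1 and CYP19A1 were below 64 in both. RNA of the conceptus was not separated from that of the endometrium. The summed signal of 4 stromal markers was 44202 to 51248 in Meishan and 33461 to 41349 in Yorkshire, and that of 4 endothelial markers was 4233 to 4412 in Meishan and 4541 to 6056 in Yorkshire. Both sums separated the breeds, but their members did not move alike. Of the stromal markers VIM and DCN separated the gilts, higher in Meishan, COL1A2 overlapped and COL3A1 had the higher mean in Yorkshire (786 and 1362). Of the endothelial markers only CDH5 separated the gilts, higher in Yorkshire. Of the genes listed as epithelial markers only PGR did, also higher in Yorkshire (336 and 495). Which cells the PGR signal came from was not tested. The part of these markers in the differences below was not tested. In whole tissue, fewer cells of a type and less RNA per cell cannot be told apart. The hybridization control probesets also separated the breeds, with means of 11.80 to 12.52 on the log2 scale in Meishan and 10.77 to 11.27 in Yorkshire, and their part was likewise not tested.

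A single gene of the family was called. SLC25A17, a member of the mitochondrial family whose product lies in the peroxisomal membrane and exchanges coenzyme A, FAD and related nucleotides, had the higher signal in Yorkshire. It had 1 probeset, so its difference could not be compared with that of another probeset. Its signal was 620, 360, 490 and 403 in the Meishan gilts, numbered 1 to 4, and 1690, 2890, 3484 and 2903 in the Yorkshire gilts. The lowest Yorkshire gilt lay well above the highest Meishan gilt. The means were 458 and 2651, a 5.79-fold difference (log2 difference -2.53, SE 0.28, 95% interval -3.18 to -1.88, limma adjusted p = 0.0183). Among the 179 probesets this was the only call, 0.559% of them against 0.908% of all probesets tested (0.504% higher in Yorkshire and 0.404% in Meishan). At an unadjusted p under 0.05 there were 24, of which 15 were higher in Meishan and 9 in Yorkshire, or 13.4% against 14.8% of all probesets. There was no overlap of Meishan with Yorkshire gilts at 14 of the 179 (8 higher in Meishan, 6 in Yorkshire), which is 7.82% against 10.1% of all probesets (5.01% higher in Meishan and 5.09% in Yorkshire). By each of these counts the share among the carriers was no higher than that of the array as a whole. The study's own model called more probesets on the same arrays. The study listed probesets at a q-value under 0.1. Here 218 were called over the whole array, and 636 with Storey q-values in place of the adjusted p. The study's list, of which 2502 probesets were read, is longer than either. Of the 179, 9 were on that list under the same symbol. They were probesets of SLC25A17, SLC1A1, SLC38A1, SLC39A1, SLC22A6, SLC45A2, SLC27A6 and SLC46A3. By the limma adjusted p only that of SLC25A17 was called here.

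Taken as genes, 64 of the 121 had a higher mean in Meishan and 57 in Yorkshire, with a median log2 difference of 0.03 against 0.02 over all probesets. The amino acid carriers had 12 genes with the higher mean in Meishan and 7 in Yorkshire (median 0.13). For the sugar carriers the counts were 12 and 5 (median 0.29), and for the ion carriers they were 9 and 16 (median -0.16). The mitochondrial family divided into 10 and 11 (median -0.04) and the other carriers into 18 and 18, with a median next to zero. The 3 genes named for a carrier had differences of 0.10 to 0.27. At an unadjusted p under 0.05 there were 3 amino acid carriers and 1 sugar carrier, all higher in Meishan. There were also 3 ion carriers (1 higher in Meishan, 2 in Yorkshire), 1 mitochondrial carrier and 4 other carriers (2 in each direction). These were 15.8% of the amino acid genes, 5.88% of the sugar, 12.0% of the ion, 4.76% of the mitochondrial and 11.1% of the other. The share over all probesets tested was 14.8%. The 3 amino acid carriers included SLC3A1, whose second probeset went the other way. Class medians moved with the grouping. Family SLC35 includes nucleotide sugar carriers of the Golgi. With it counted as sugar and SLC37 as other, the sugar median became -0.078 and that of the other carriers 0.21. Over all its probesets the amino acid class had a median of 0.66 and the mitochondrial class 0.047. Of the 29 amino acid probesets, 5 were of SLC1A1 and 3 of SLC38A1. Means were below 64 in both breeds at 9 of the 29, and at 5 of the 19 amino acid genes. Dim probesets leaned to Meishan over the whole array, as given below, and the part of this in the class counts was not tested.

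**Figure D1:**
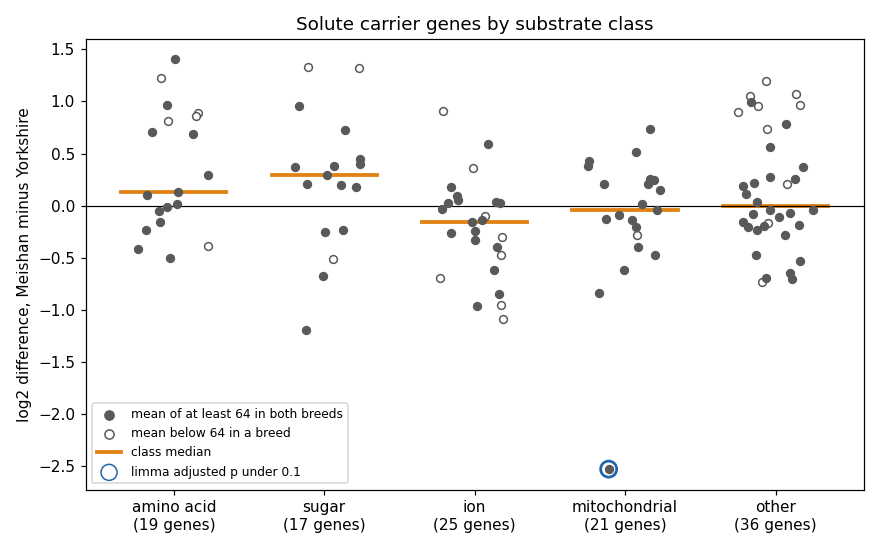
Log2 difference, Meishan minus Yorkshire, of 118 solute carrier genes at their brightest probeset, with 1 point per gene and a bar at each class median. Open points had a mean below 64 in a breed. SLC25A17, ringed at -2.53, lay apart from all other genes, and most of the rest lay within 1 of the zero line.

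Amino acid carriers with the lowest p had higher means in Meishan. SLC1A1, the glutamate and aspartate carrier of epithelia, had signals of 1462, 2109, 1020 and 1602 in the Meishan gilts and 916, 645, 822 and 211 in the Yorkshire gilts. The breeds did not overlap, although Yorkshire gilt 4 lay far below the other 3. The difference was 1.40 (SE 0.48) and was not called (limma adjusted p = 0.236). SLC1A1 had 5 probesets, all higher in Meishan, with differences from 0.91 to 3.19, and the gilts did not overlap at 3 of them. The largest difference came from a dim probeset, with means of 35.4 and 3.89 (limma adjusted p = 0.130).

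SLC38A1, a sodium-coupled carrier of glutamine and other neutral amino acids, had signals of 8521, 7385, 3295 and 2619 in Meishan and 2636, 1735, 2578 and 3152 in Yorkshire. Meishan gilts 1 and 2 were high, and gilts 3 and 4 lay near the Yorkshire range. Its difference was 0.97 (SE 0.42, limma adjusted p = 0.339). The other 2 probesets of SLC38A1 gave 1.12 and 1.34, and Meishan gilts 1 and 2 were the highest of the 8 at both.

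SLC3A1, the heavy subunit that brings the cystine carrier SLC7A9 to the apical membrane, had signals of 1146, 627, 970 and 740 in Meishan and 470, 461, 532 and 672 in Yorkshire. Only Yorkshire gilt 4 reached into the Meishan range (difference 0.68, SE 0.25, limma adjusted p = 0.257). The second SLC3A1 probeset went the other way, 444, 329, 401 and 352 in Meishan against 556, 479, 631 and 446 in Yorkshire, with no overlap (difference -0.46, SE 0.19, limma adjusted p = 0.316). The study's list gives the brighter probeset the name of PREPL, a gene whose span overlaps that of SLC3A1 in the RefSeq table, so which transcript it measured is uncertain. SLC7A9 itself lay between 349 and 2328 in Meishan and between 463 and 1228 in Yorkshire (difference 0.71, SE 0.61).

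SLC7A1, the carrier of arginine and lysine, was 1984, 799, 827 and 755 in Meishan and 1173, 1219, 1396 and 1990 in Yorkshire. Meishan gilt 1 stood at the level of the highest Yorkshire gilt, and the other 3 lay below every Yorkshire gilt (difference -0.50, SE 0.35, limma adjusted p = 0.554). SLC3A2, the heavy subunit shared by several exchangers, had a difference of 0.02 (95% interval -0.68 to 0.72). For SLC7A7, the partner of SLC3A2 in the export of basic amino acids, it was -0.01 (-0.45 to 0.42). For SLC1A5, the glutamine exchanger, it was -0.16 (-0.82 to 0.50). The intervals leave room for modest differences in either direction. Family SLC1 also held the glutamate carriers SLC1A2 and SLC1A3 and the neutral amino acid carrier SLC1A4, with differences of -0.39, 0.10 and 0.29, and SLC1A6, a glutamate carrier best known from the cerebellum, with no Yorkshire gilt above 39.7 (difference 0.81, SE 0.38, limma adjusted p = 0.371).

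**Figure D2:**
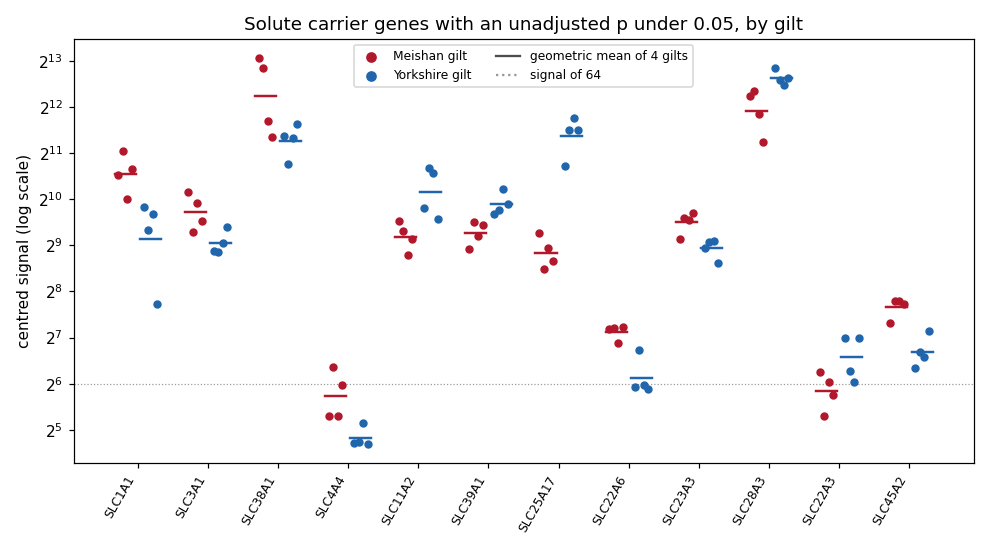
Centred signal, on a log scale, of the 12 solute carrier genes with an unadjusted p under 0.05 at their brightest probeset, with 1 point per gilt and a bar at the geometric mean of the 4 gilts of a breed. Meishan and Yorkshire gilts lay fully apart at 9 of the genes, and overlapped at SLC3A1, SLC38A1 and SLC22A3. The genes were picked by p on these same gilts, so their separation is not a test. Over all 121 genes the breeds lay apart at 9 (7.44%), against 10.1% of all probesets tested.

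Among sugar carriers, the glucose carriers varied widely among the gilts of a breed. SLC2A1, the facilitated glucose carrier found in most cells, was 1255, 4869, 1879 and 1058 in Meishan and 4353, 5799, 7918 and 1673 in Yorkshire. The mean was 2.29-fold higher in Yorkshire, but the ranges overlapped widely, with Meishan gilt 2 above Yorkshire gilts 1 and 4 (difference -1.20, SE 0.61, limma adjusted p = 0.410). SLC5A1, the sodium-driven glucose carrier, was 8623, 1767, 8754 and 5354 in Meishan and 7125, 3633, 3225 and 3027 in Yorkshire (difference 0.37, SE 0.55). Meishan gilt 2 was the lowest of the 8 for SLC5A1 and the highest Meishan gilt for SLC2A1.

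SLC2A3, a high-affinity glucose carrier, was 1296 in Meishan gilt 1 and 281 to 384 in the other 3, and it was 2419 in Yorkshire gilt 4 and 354 to 597 in the other 3 (difference -0.68, SE 0.69). The intracellular carrier SLC2A8 had means of 1084 and 948 (difference 0.19, SE 0.31), and SLC2A4, the insulin-responsive carrier, 103 and 75.9 (difference 0.44, SE 0.34). SLC2A2, the carrier of liver and beta cells, was below 64 on all 8 arrays. The vitamin carrier SLC5A6, a member of the sodium-glucose family that takes up biotin and pantothenate, had means of 3816 and 3367 (difference 0.18, 95% interval -0.30 to 0.66).

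SLC45A2, a carrier of the melanosome membrane required for pigmentation, had the lowest p of the class. Its signal was 159, 220, 222 and 212 in Meishan and 81.6, 103, 96.2 and 142 in Yorkshire. Every Meishan gilt lay above every Yorkshire gilt, with Meishan gilt 1 the closest to the other breed (1.94-fold, log2 difference 0.96, SE 0.23), and the difference was not called (limma adjusted p = 0.132). Its relative SLC45A3 was also higher in Meishan at all 3 of its probesets (0.40, 1.03 and 0.19), none of them called.

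The ion carriers included 12 carriers of metals, of which 5 had the higher mean in Meishan and 7 in Yorkshire (median -0.20). SLC11A2, which takes iron and other divalent metals into cells and out of endosomes, was 733, 639, 444 and 561 in Meishan and 898, 1632, 1525 and 763 in Yorkshire. The breeds did not overlap, and Yorkshire gilt 4 lay just above the highest Meishan gilt (1.96-fold, log2 difference -0.97, SE 0.31, limma adjusted p = 0.213). The other 3 probesets of SLC11A2 gave 0.03, 0.59 and -0.96, and the breeds overlapped at each of them.

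SLC39A1, a zinc importer of the cell surface, was 482, 729, 586 and 692 in Meishan and 815, 868, 1192 and 950 in Yorkshire, without overlap (log2 difference -0.62, SE 0.21, limma adjusted p = 0.234). Its second probeset gave the same difference, -0.62 (SE 0.18, limma adjusted p = 0.183), from signals of 323 to 435 in Meishan and 502 to 649 in Yorkshire. SLC39A1 thus separated the gilts of the breeds at both of its probesets. Another zinc importer, SLC39A2, was far more variable, at 1316, 6469, 6328 and 4902 in Meishan and 12080, 10709, 11226 and 1914 in Yorkshire. Yorkshire gilts 1 to 3 lay above all Meishan gilts, while Yorkshire gilt 4 lay below all Meishan gilts but the first (difference -0.85, SE 0.74, limma adjusted p = 0.641).

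SLC31A1, the copper importer, had almost equal means of 3016 and 2972 (difference 0.02, 95% interval -0.49 to 0.54). Its dimmer probeset, with means of 36.8 and 57.9, gave -0.65 (SE 0.55). SLC31A2, its relative of endosomes, had 2 probesets, both lower in Meishan (-0.33 and -0.75), and neither was called. The zinc exporter SLC30A3 had means of 1347 and 1479 (difference -0.13, SE 0.24) at its brightest probeset and of 227 and 148 at the second, in the opposite direction (difference 0.61, SE 0.28, limma adjusted p = 0.363). For the zinc importer SLC39A14 the means were 207 and 203 (difference 0.03, SE 0.31), and a dimmer probeset gave -0.86 (SE 0.70). SLC34A2, an epithelial phosphate carrier, lay between 44.5 and 171 in Meishan and between 31.2 and 361 in Yorkshire (difference -0.25, SE 0.82). SLC4A4, the sodium bicarbonate cotransporter, was dim and did not overlap at its brightest probeset, with means of 53.4 and 28.4 (difference 0.91, SE 0.28, limma adjusted p = 0.206), but its second probeset gave -0.83 (SE 0.74). SLC26A6, an anion exchanger, had means below 64 in both breeds (difference -0.96, SE 0.48, limma adjusted p = 0.402).

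Apart from SLC25A17, the mitochondrial family was the least variable of the 5 classes of carriers. Its median SD within breeds was 0.33 on the log2 scale, against 0.58 for the amino acid carriers. Means were at least 64 in both breeds at 20 of its 21 genes, and at 14 of the 19 amino acid carriers. All probesets of the array at that level had a median SD of 0.34, so the low spread was not particular to the family. SLC25A6 and SLC25A5, which exchange ADP for ATP across the inner membrane, had differences of -0.13 (95% interval -0.54 to 0.29) and 0.25 (-0.51 to 1.01). SLC25A3, the phosphate carrier that supplies ATP synthase, had a difference of 0.15 (-0.27 to 0.57). These carriers of oxidative phosphorylation were bright on all 8 arrays, with SLC25A6 between 9099 and 13285 and SLC25A3 between 7486 and 11148.

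SLC25A48 followed SLC25A17 in order of p, with a mean of 112 in Meishan and 67.1 in Yorkshire (difference 0.73, SE 0.33, limma adjusted p = 0.360). SLC25A30 had means of 241 and 431 (difference -0.84, SE 0.40, limma adjusted p = 0.378), and SLC25A39, a carrier needed for mitochondrial glutathione, of 470 and 349 (difference 0.43, SE 0.22, limma adjusted p = 0.402). The breeds overlapped at all 3 of these genes.

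In the class of other carriers, SLC22A6, an exchanger of organic anions best known from the kidney, had the lowest p. Its signal was 145, 148, 118 and 150 in Meishan and 60.6, 106, 62.9 and 59.1 in Yorkshire. The breeds did not overlap, with Meishan gilt 3 and Yorkshire gilt 2 nearest to each other (2.00-fold, log2 difference 1.00, SE 0.23, limma adjusted p = 0.132). SLC22A3, a carrier of organic cations and monoamines from the same family, went the other way, 1.66-fold higher in Yorkshire (difference -0.73, SE 0.31, limma adjusted p = 0.334).

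SLC28A3, which concentrates nucleosides in cells, was 4828, 5239, 3698 and 2425 in Meishan and 7342, 6108, 5712 and 6321 in Yorkshire, with no overlap (difference -0.71, SE 0.27, limma adjusted p = 0.278). SLC23A3, a member of the ascorbate carrier family, was 566, 773, 749 and 832 in Meishan and 495, 535, 548 and 392 in Yorkshire, again with no overlap (difference 0.56, SE 0.20, limma adjusted p = 0.254). All 3 genes of family SLC23 had the higher mean in Meishan, and those of SLC23A1 and SLC23A2 were below 64 in Yorkshire. The 3 genes of family SLC46, which holds the folate carrier SLC46A1, had the higher mean in Yorkshire (-0.65, -0.21 and -0.70), but the second SLC46A1 probeset gave 0.95 (SE 0.40, limma adjusted p = 0.328). SLC27A6, a fatty acid carrier, was higher in Meishan at all 3 probesets, by 0.79, 2.21 and 1.62, and none was called.

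Family SLC35 includes carriers that bring nucleotide sugars into the Golgi and endoplasmic reticulum for glycosylation. It had 9 of 10 genes with the higher mean in Yorkshire, taken by family number whatever they carry. The differences were small, from -0.47 to 0.37 with a median of -0.17, and none of the 10 genes reached an unadjusted p under 0.05. All 10 had means of at least 64 in both breeds, a level at which 45.8% of the probesets of the array had the higher mean in Meishan. SLC35D2, at the low end, had means of 302 and 419 (SE 0.23, limma adjusted p = 0.379), and SLC35A3, the carrier of UDP-N-acetylglucosamine, was the 1 gene on the Meishan side.

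Of the 121 genes, 40 had 2 or more probesets. All probesets of a gene lay on the same side at 21 of these (14 Meishan, 7 Yorkshire) and on both sides at 19. The opposite signs included genes at which a probeset had an unadjusted p under 0.05, namely SLC3A1, SLC11A2, SLC4A4 and SLC46A1, so for these the direction depends on the probeset. Dim probesets leaned to Meishan over the whole array. Among probesets with a mean signal of at most 15.8, 1 of 10 equal groups by brightness, the median difference was 0.46, and after quantile normalization of the arrays it was 0.10. The 94 carrier genes with means of at least 64 in both breeds had 48 genes higher in Meishan and 46 in Yorkshire (median 0.02). At that level 16017 probesets of the array had 7343 higher in Meishan and 8674 in Yorkshire (median -0.04).

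**Figure D3:**
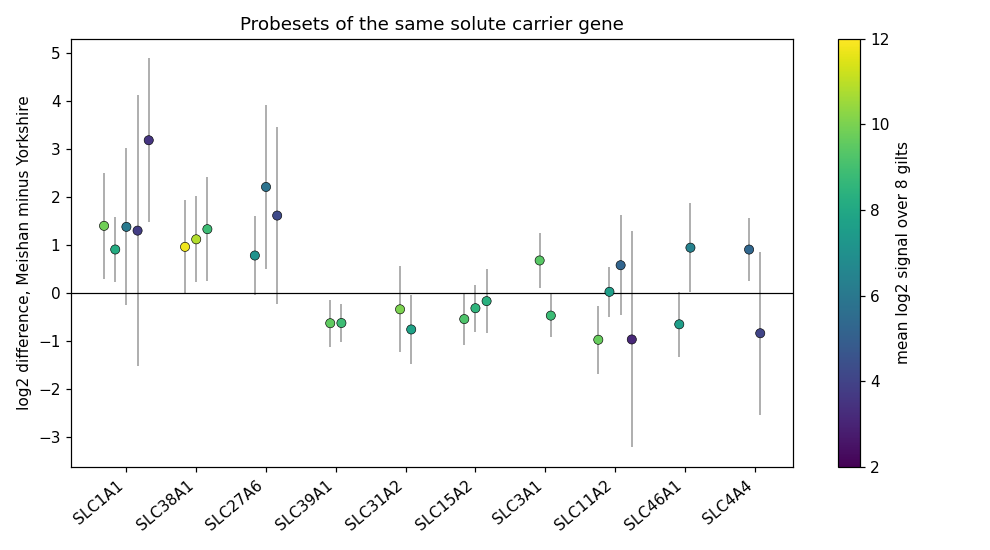
Log2 difference, Meishan minus Yorkshire, with its 95% interval from limma, for every probeset of 10 genes, ordered from brightest to dimmest within a gene and coloured by mean log2 signal. The probesets of SLC1A1, SLC38A1 and SLC27A6 all lay above zero and those of SLC39A1, SLC31A2 and SLC15A2 below it, while those of SLC3A1, SLC11A2, SLC46A1 and SLC4A4 lay on both sides.

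A list of 34 carriers known for nutrient transport in the uterus had 19 genes measured, 11 with the higher mean in Meishan and 8 in Yorkshire. No gene of the list was called by limma. At an unadjusted p under 0.05 there were SLC1A1, SLC38A1 and SLC3A1 with higher means in Meishan and SLC11A2 with a higher mean in Yorkshire. These 4 are 21.1% of the 19 genes, against 14.8% of all probesets tested. The other 15, among them all the glucose carriers of the list, did not reach an unadjusted p under 0.05. Of the 4, SLC38A1 only just reached that level. SLC3A1 and SLC11A2 had probesets on both sides, and the study's list gives the SLC3A1 probeset to PREPL. The breeds lay apart at 2 of the 19 genes (10.5%), against 10.1% of all probesets tested.

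Several carriers varied widely among the gilts of a breed. Over the 94 genes with means of at least 64 in both breeds the median SD within breeds was 0.42 on the log2 scale, and the 10 highest values ran from 0.87 to 1.49. In descending order these were SLC15A1, the peptide carrier of absorptive epithelia, then SLC5A4, SLC34A2, SLC39A2, SLC2A3, SLC2A1, SLC7A9, SLC35A3, SLC44A4 and SLC5A1. SLC15A1 was 60.2, 276, 626 and 766 in Meishan and 788, 215, 289 and 90.1 in Yorkshire. SLC5A4, a relative of the sodium-driven glucose carrier, was 607, 844, 755 and 2946 in Meishan and 1769, 1493, 427 and 135 in Yorkshire. SLC44A4, a choline-like carrier, was 3793, 1030, 1449 and 2139 in Meishan and 1186, 787, 1650 and 3876 in Yorkshire.

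Yorkshire gilt 4 was the highest or the lowest of its breed at all 10 of these genes, Meishan gilt 2 at 8 and Meishan gilt 1 at 7. Meishan gilt 1 and Yorkshire gilt 4 had in common the lowest SLC39A2, SLC15A1 and SLC5A4 of their breeds and the highest SLC2A3, SLC34A2, SLC35A3 and SLC44A4. Of the 8 genes listed as epithelial markers, 6 (EPCAM, CDH1, KRT8, KRT18, KRT19 and PGR) were also highest of their breed in both of these gilts. ACP5 was lowest in both, and ESR1 was highest in Yorkshire gilt 4 but not in Meishan gilt 1. KRT19 was 1574 in Meishan gilt 1 (579 to 957 in the other 3) and 2679 in Yorkshire gilt 4 (434 to 1484 in the other 3), and ACP5 was 14086 and 18988 in these gilts. The part of these markers in the spread of the carriers was not tested. The 10 genes were picked for their spread after the values were seen.

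**Figure D4:**
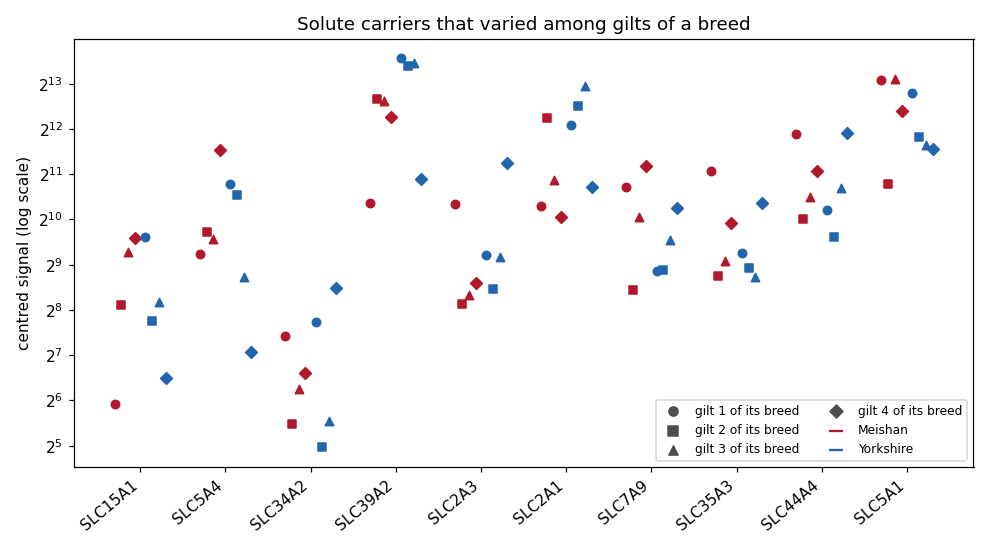
Centred signal, on a log scale, of the 10 carriers with the highest SD within breeds among the 94 genes with means of at least 64 in both. Each point is a gilt, with a marker shape for its number within the breed. Meishan gilt 1 and Yorkshire gilt 4 lay together low at SLC39A2 and SLC15A1 and high at SLC2A3, SLC35A3 and SLC44A4.

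The 18 probesets that the study's list alone named as carriers were on that list for differing on these arrays, so neither their size nor their separation is a test. Of these, 11 had the higher mean in Meishan and 7 in Yorkshire, and 10 had means of at least 64 in both breeds. SLC12A8, of the cation-chloride cotransporter family, was 2908, 2646, 2025 and 2028 in Meishan and 318, 475, 330 and 276 in Yorkshire. SLC17A3, an exporter of urate and organic anions, was 4058, 3191, 2979 and 3288 in Meishan and 839, 1033, 585 and 596 in Yorkshire. At both genes the Meishan gilts lay several-fold above the Yorkshire gilts, with a 6.92-fold difference in means for SLC12A8 and 4.53-fold for SLC17A3.

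Higher in Yorkshire on that list was SLC38A11, of the neutral amino acid family, at 95.6, 215, 115 and 120 in Meishan and 425, 370, 535 and 392 in Yorkshire (3.29-fold). SLC7A3, a carrier of arginine and lysine like SLC7A1, had means of 470 and 852 and no overlap. SLC47A1, which expels organic cations, had 2 probesets, with means of 629 and 1011 at the brighter and 69.3 and 155 at the dimmer. The phosphate carrier SLC20A2 had means of 541 and 777, at a probeset that the array annotation gives to EIF3M, so the name is uncertain. SLC35F3 had a mean of 25.5 in Meishan and 356 in Yorkshire.

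The folate carrier SLC19A1 had means of 385 in Meishan and 251 in Yorkshire. Of the mitochondrial family, SLC25A22, the glutamate carrier, had means of 189 and 102, and SLC25A42, the coenzyme A carrier, of 148 and 77.1. SLC25A25, which exchanges ATP-magnesium for phosphate, had means of 94.9 and 8.68, and all its Yorkshire gilts were below 64. SLC4A11 had means of 82.5 and 15.6, and the zinc importer SLC39A3 was 2.75-fold higher in Meishan, with a mean of 118. The dicarboxylate carrier SLC25A10 had probesets in opposite directions, 158 against 56.9 at one and 48.7 against 133 at the other. The listed SLC25A30 probeset, at 44.4 in Meishan and 19.7 in Yorkshire, was opposite in direction to the one the array annotation names.

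**Figure D5:**
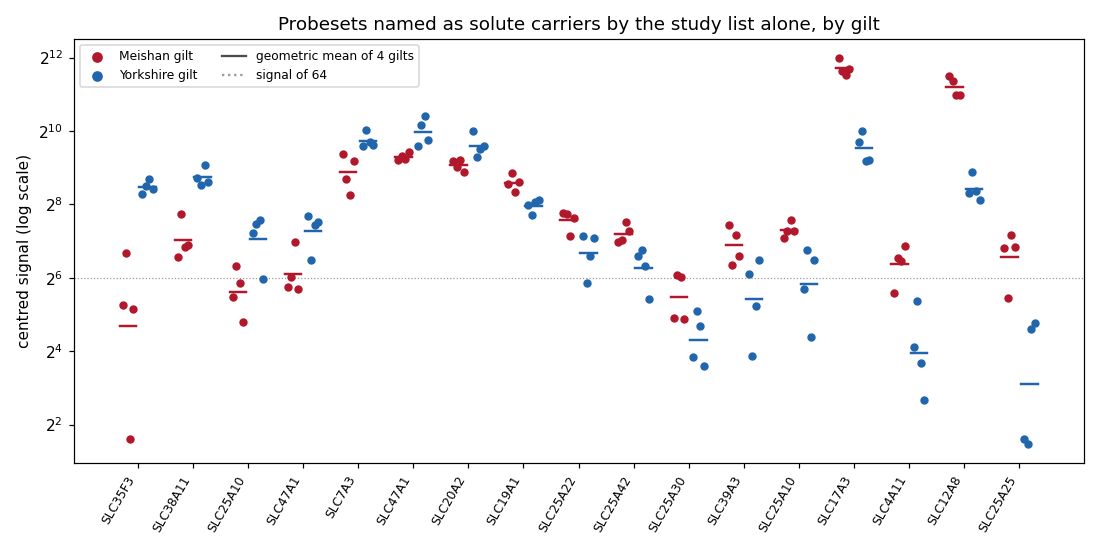
Centred signal, on a log scale, of 17 of the 18 probesets named as solute carriers by the study's list alone, with 1 point per gilt and a bar at the geometric mean of each breed, ordered by log2 difference from Yorkshire to Meishan. The 4 Meishan gilts lay between 2025 and 4058 at SLC12A8 and SLC17A3, above every other value plotted.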

How the data were processed

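For each of 8 arrays, 1 per gilt, the deposited file gives linear intensities that the authors obtained from GCOS 1.2, the software of the array's maker. Trimming 2% of probesets at either end left a mean of 500.1 on all arrays, so a scaling had been applied before deposit. Of 24123 probesets, 124 were controls and the other 23999 were tested. The study fitted natural logs with slide and animal terms in SAS. With 1 array per gilt these terms cannot be told from the residual, and breed alone entered the model here.

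Signals were converted to log2 and reduced by the median of the tested probesets on the same array. The breeds were compared with limma 3.58.1 in R 4.3.3, with variances moderated at 2.09 prior degrees of freedom and p adjusted over the 23999 probesets by Benjamini-Hochberg, with calls at an adjusted p under 0.1. Fold differences are ratios of geometric means. The level of 64 that marks low signals is arbitrary, and levels are compared only within a probeset.

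The procedure was tested on simulated data in which 200 of 23999 probesets had been changed. Of these, 0.5% were recovered at a log2 change of 1, 71.5% at 2 (beside 25 false calls) and 88.5% at 4 (beside 13), and with nothing changed 0 calls were made. In that setting a log2 difference of 1 was seldom callable with 8 arrays. In the data 14.8% of probesets had an unadjusted p under 0.05. Recovery depends on how many probesets change, so the share for the data may differ.

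Names came from the annotation of the array (1 symbol for 10110 probesets, several for 157, none for 13732) and from 2502 probesets of the study's list, whose own means and test results were not used. Of the probesets that the array annotation named as carriers, the study's list gave 9 the same symbol and 1 another, PREPL in place of SLC3A1. The list named as SLC20A2 a probeset that the array annotation gives to EIF3M. Class followed the SLC family number whatever a gene carries, so that SLC5A5 and SLC5A6 count as sugar carriers and SLC6A4 and SLC6A8 as amino acid carriers. Members, lists, classes and alternatives were chosen with earlier results of these data known.

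Named genes were the called probesets, the 4 genes of lowest p and the 3 brightest genes of each class, the carriers of the nutrient list, the probesets named by the study's list alone, genes with opposite probesets of which 1 reached an unadjusted p under 0.05, and SLC25A25, which the study names. A probeset of the study's list is not reported here. Outside this rule, and picked with their values in view, are SLC15A1, SLC15A2, SLC5A4, SLC7A9, SLC23A1, SLC23A2, SLC27A6, SLC31A2, SLC35A3, SLC35D2, FLVCR2, SFXN4 and MPC1. Deviations of same-numbered gilts had correlations of -0.056, 0.089, 0.001 and 0.041, so the numbers were not taken as pairs. Alternatives were no centring, quantile normalization, a minimum of 64 on 2 arrays, a floor of 32, an intensity trend, no moderation, Storey q-values, a threshold of 0.05, a replicate block, each gilt left out in turn, and other groupings into classes.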

Additional observations from a re-analysis of the deposited data

Results flagged for a closer look

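Among the named carriers and the 18 probesets of the study's list, 140 groups of 4 gilts were examined for a gilt set apart from the other 3 of its breed, by the gap to its nearest neighbour as a share of the range of the group on the log2 scale, against Dixon's 95% critical value. This flagged 11 groups, where chance flags about 1 in 20.

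The gilt lay below the other 3 at SLC39A2 in Yorkshire gilt 4 (gap 0.935 of the range, 1914 against 10709 to 12080), at SLC2A8 in Meishan gilt 2 (0.851, 584 against 1250 to 1429), at SLC39A14 in Meishan gilt 1 (0.872, 128 against 234 to 256), at SLC45A2 in Meishan gilt 1 (0.864, 159 against 212 to 222), at SLC45A3 in Meishan gilt 3 (0.936, 151 against 231 to 238) and at SLC22A6 in Meishan gilt 3 (0.843, 118 against 145 to 150).

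It lay above the other 3 at SLC22A6 in Yorkshire gilt 2 (0.893, 106 against 59.1 to 62.9), at SLC7A1 in Meishan gilt 1 (0.906, 1984 against 755 to 827), at SLC3A2 in Yorkshire gilt 4 (0.829, 725 against 515 to 546) and, at both SLC4A4 probesets, in Yorkshire gilt 3 (0.904 and 0.861). SLC22A6 was flagged in both breeds, each time by the gilt nearest to the other breed.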

How the results depend on the processing

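SLC25A17 was called under every alternative except the replicate block, with adjusted p from 0.00089 to 0.0644 elsewhere. With the replicate number as a block, limma called no carrier (0 of 179, with 25 at an unadjusted p under 0.05) and no probeset of the whole array, and SLC25A17 had an adjusted p of 0.162. The labels do not say that the numbers pair the gilts, and deviations of same-numbered gilts had correlations of -0.056 to 0.089. Called probesets numbered 1 without centring, after quantile normalization and without moderation. There were 3 with the minimum of 64 on 2 arrays (SLC22A6 and SLC45A2 added), 4 with the floor of 32 (these and the second SLC39A1 probeset added), 2 with an intensity trend (a dim SLC1A1 probeset added) and 4 with Storey q-values (SLC22A6, SLC45A2 and that SLC1A1 probeset added). Leaving out 1 gilt gave 1 to 2 calls, and 2 came without Yorkshire gilt 1 (that SLC1A1 probeset) or gilt 2 (SLC22A6).

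The amino acid median was 0.66 over all probesets and 0.079 to 0.28 with 1 gilt left out, the highest without Meishan gilt 2. With SLC35 counted as sugar and SLC37 as other, the sugar median was -0.078 and the median of the other carriers 0.21. The mitochondrial median was 0.024 without centring, 0.047 over all probesets and -0.059 to 0.032 with 1 gilt left out, above zero without Meishan or Yorkshire gilt 3. That of the ion carriers was -0.25 to -0.072 with 1 gilt left out, the ends coming without Meishan gilt 1 and Yorkshire gilt 2. The cause was not tested.

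Of the 52 named probesets, 14 changed side under at least 1 alternative. With the floor of 32, the dimmest SLC11A2 probeset, whose signals were all below it, had no difference and so no side. SLC1A3 turned to -0.069 after quantile normalization, and SLC7A7 to 0.049 without centring and 0.042 after quantile normalization. With 1 gilt left out the differences that turned ranged from -0.077 to 0.18 for the SLC11A2 probeset near zero, -0.72 to 0.17 for SLC1A2, -0.11 to 0.28 for SLC1A3, -0.092 to 0.59 for SLC1A4, -0.32 to 0.082 for SLC1A5, -0.036 to 0.35 for SLC2A4RG, -0.26 to 0.026 for SLC30A3, -0.0995 to 0.19 for SLC31A1, -0.82 to 0.36 for SLC34A2, -0.13 to 0.26 for SLC39A14, -0.20 to 0.25 for SLC3A2, -0.086 to 0.69 for SLC44A4, -0.072 to 0.086 for SLC7A7 and -0.072 to 0.20 for SLC9A3R2.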

Other observations

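Carriers whose symbols lack the SLC prefix were measured for 13 of 32 genes listed, 5 with the higher mean in Meishan and 8 in Yorkshire, and limma called none. An unadjusted p under 0.05 was reached by 2 (15.4%, against 14.8% of all probesets tested), both with the higher mean in Yorkshire. The breeds lay apart at these 2 alone, 15.4% against 10.1% of all probesets tested. FLVCR2, a carrier of choline and heme, was 183, 355, 115 and 268 in the Meishan gilts and 532, 757, 605 and 414 in the Yorkshire gilts, without overlap (log2 difference -1.41, SE 0.37, limma adjusted p = 0.159). SFXN4, a sideroflexin of the inner mitochondrial membrane, had means of 182 and 299, also without overlap (difference -0.71, SE 0.22, limma adjusted p = 0.208).

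MPC1, a subunit of the mitochondrial pyruvate carrier, lay between 4441 and 5884 in Meishan, while Yorkshire gilts 1 and 4 reached 11025 and 12901 and gilts 2 and 3 were at 5306 and 4715 (difference -0.61, SE 0.36). Its partner MPC2 had means of 1679 and 1600 (difference 0.07, SE 0.25), and did not show the same pair of high gilts.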
